A study of Mus musculus with 10 samples.

Results

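Hepatocyte growth factor (HGF) and macrophage-stimulating protein (MSP) are secreted as inactive single chains and become ligands once a serine protease cuts them in 2. HGF then binds the receptor tyrosine kinase MET, and MSP binds its relative RON. Hepsin, the membrane protease studied here, can make these cuts in purified systems, and both receptors sit on epithelial cells, where their signalling drives growth, movement and branching, in the mammary gland among other organs. The 9 mouse genes examined were the ligand genes Hgf and Mst1 (which encodes MSP), the activator Hgfac, the receptors Met and Mst1r (which encodes RON), and 4 genes for proteins that act downstream of the receptors, Gab1, Grb2, Ptpn11 and Cblb. They were picked by symbol from the 55335 genes of a table of raw read counts, and all 9 were present.

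RNA had been sequenced from 10 whole mammary tumours in the FVB strain background, 5 in each group. All 10 grew from mammary epithelial cells of virgin Wap-Myc mice, which carry the oncogene Myc under the milk-protein promoter Wap, switched on in mammary epithelium by pregnancy. All the cells had been transduced with the lentiviral construct pIND21-HPN, named for the hepsin gene HPN, and put into fat pads of hosts aged 3 weeks. Hosts of the DOX_pos tumours drank sugar water with doxycycline at 2 mg/ml, beginning 3 days after transplantation, and hosts of the DOX_neg tumours drank sugar water without it. Myc was induced by 2 pregnancies from an age of 8 weeks and tumours were taken at 1 cm. Since the construct was in both groups, doxycycline and the induction of hepsin cannot be told apart, and whether each tumour had its own host is not stated, so p-values describe the spread between these tumours. The question addressed is whether induced hepsin, a protease for these ligands, went with a different level of the ligand, receptor or adaptor transcripts. Cutting of the proteins leaves no trace in RNA counts.

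The sites that make these genes a group are shown from their coding sequence. In Hgf and Mst1 the protease cuts between an arginine and a valine. The windows below give 54 bases of each, in build GRCm38, on the plus strand, with the arginine and valine codons in capitals (codons 495 and 496 of Hgf, codons 488 and 489 of Mst1). The Hgf window is at chr5:16611831-16611884 and the Mst1 window at chr9:108083623-108083676, both inside exon 13 of 18 of the annotated transcript.
Hgf: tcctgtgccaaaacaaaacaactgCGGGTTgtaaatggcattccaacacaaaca
Mst1: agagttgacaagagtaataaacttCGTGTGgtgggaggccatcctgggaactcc
The windows were identical at 26 of 54 bases (48.1%). In the receptors, a pair of tyrosines near the end of the protein, once phosphorylated, forms the docking site to which GRB2, GAB1 and other adaptors bind, and the windows below show their codons in capitals. The Met window, at chr6:17571716-17571760 on the plus strand, is in the last exon (20), and the Mst1r window, at chr9:107919915-107919959 on the plus strand, is in its last exon (19).
Met: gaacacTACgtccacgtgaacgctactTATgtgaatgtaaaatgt
Mst1r: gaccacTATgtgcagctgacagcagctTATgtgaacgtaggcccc
These were identical at 29 of 45 bases (64.4%).

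Total counts lay between 14256948 and 39358457 per tumour, with DOX_pos 3 the deepest. No technical batch is named in the labels. Hpn, the gene the construct is named for, was read at 26.5, 46.1, 25.1, 32.9 and 28.2 CPM (counts-per-million reads, over TMM-scaled library sizes) in DOX_pos 1 to 5, against 25.8, 25.1, 23.1, 14.2 and 20.4 CPM in DOX_neg 1 to 5. The mean log2 level was higher by 0.52 with doxycycline (two-sided exact permutation p = 0.0159; edgeR adjusted p = 0.247), and 4 of 5 DOX_pos tumours lay above the highest DOX_neg tumour. Which species' hepsin the construct encodes is not given in the sources used here, so whether these reads hold the induced transcript is not known. Over all 16167 genes with enough reads to test, edgeR's quasi-likelihood test called 0 at an adjusted p under 0.05 (0% of genes), and 2592 had an unadjusted p under 0.05 (16.0%), while DESeq2 called 322 (1.99%) and limma voom with sample weights 775 (4.79%).

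Of the 7 genes with enough reads to test, none was called higher or lower in DOX_pos than in DOX_neg tumours by edgeR or voom. DESeq2 called none either, but gave no adjusted p for Mst1r. The activator gene Hgfac and the ligand gene Mst1 had too few reads to be tested, so they could not be called. Among the 7 tested, 4 had higher and 3 lower means in DOX_pos tumours (median log2 fold change 0.02, against 0.00 over all genes tested, 50.5% of which were higher). Met was the 1 member with an unadjusted p under 0.05, and 7.83% of all genes tested reached that in the lower direction. In none of the 9 genes did the groups separate, where 2.94% of all genes tested had groups that did not overlap (1.82% higher and 1.13% lower in DOX_pos tumours).

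**Figure D1:**
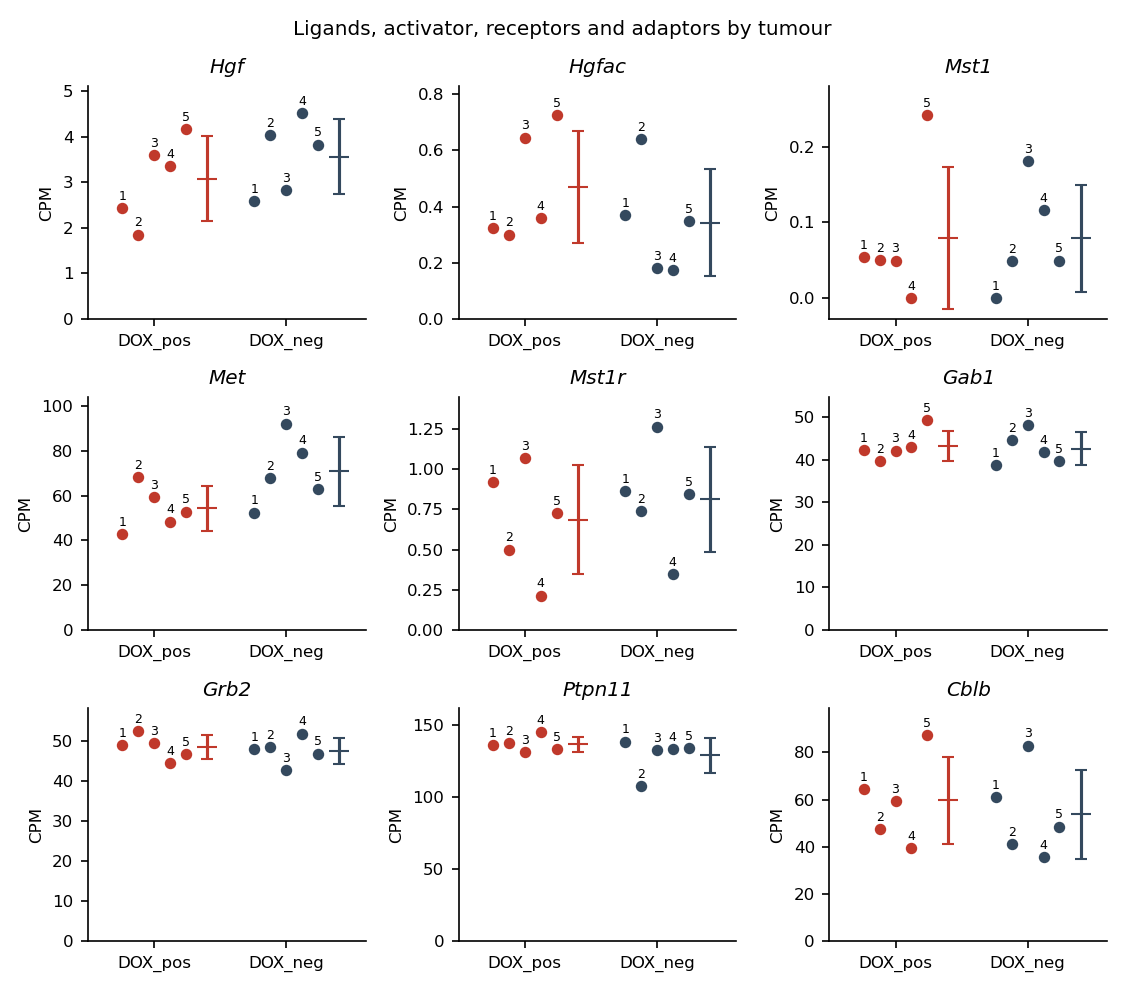
CPM (y axis, from 0 except for Mst1, whose axis starts slightly below 0) of each gene in the 5 DOX_pos tumours (red, left) and the 5 DOX_neg tumours (dark, right), numbered by tumour, with the mean and SD to the right of each group. The groups overlap in every panel, and Met has the lowest values in DOX_pos 1 and DOX_pos 4 (42.8 and 48.5 CPM) and the highest in DOX_neg 3 (92.2 CPM).

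Among the ligands, Hgf (chromosome 5, 16553495 to 16620152), normally made by mesenchymal cells and acting on neighbouring epithelium, was read at a low level. It had 2.43, 1.85, 3.598, 3.36 and 4.17 CPM in DOX_pos 1 to 5, against 2.59, 4.04, 2.83, 4.52 and 3.83 CPM in DOX_neg 1 to 5. DOX_pos 2 and DOX_pos 1 were below every DOX_neg tumour, and the other 3 DOX_pos tumours lay within the DOX_neg range. The means were 3.08 ± 0.931 CPM in DOX_pos tumours and 3.56 ± 0.821 CPM in DOX_neg tumours (SD, n = 5 each), a log2 fold change of -0.21 (SE 0.24, edgeR adjusted p = 0.677), which was -0.078 without DOX_pos 2 and -0.051 with voom. These values rest on 37 to 145 reads per tumour. Of the 75-base stretches of its transcripts, 5.65% also occur in an overlapping locus on the same strand, Gm43489, which had 23 reads in all 10 tumours against 669 for Hgf.

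Mst1, the MSP gene, which is transcribed mainly in liver, was barely read. It had 8 reads over the DOX_pos tumours and 7 over the DOX_neg tumours, and DOX_pos 4 and DOX_neg 1 had 0. A count of 0 allows up to 0.215 CPM in DOX_pos 4 and up to 0.185 CPM in DOX_neg 1, taking 3 reads as the limit. The ratio of DOX_pos to DOX_neg CPM was 0.946, with an exact 95% counting interval of 0.300 to 3.06, so a difference of up to about that size was not detectable at this depth. Part of Mst1 (195 exon bases) lies opposite Rnf123, which had 9215 reads. The 6 hepatocyte markers summed to 0.0496 to 0.604 CPM in DOX_pos tumours and 0.0602 to 0.199 CPM in DOX_neg tumours. Apoa2 and Ttr had 0 reads in every tumour and Alb, encoding albumin, had reads in DOX_pos 3 and DOX_neg 5 alone, while Apoa1 was read in every tumour but DOX_pos 3, at up to 0.185 CPM. DOX_pos 5, the tumour highest for Mst1 (0.242 CPM), was also highest for the fibrinogen gene Fgb (0.544 CPM). The rest of the list was not high in DOX_pos 5, where Apoa1 was at 0.0604 CPM and Alb, Apoa2, Ttr and Serpina1a had 0 reads. The part of hepatocytes in the Mst1 values was not tested.

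Hgfac, encoding the HGF activator, a serine protease that circulates as a zymogen from the liver, was likewise low. It had 0.324, 0.300, 0.645, 0.358 and 0.725 CPM in DOX_pos 1 to 5, against 0.370, 0.641, 0.181, 0.174 and 0.348 CPM in DOX_neg 1 to 5. DOX_pos 3 and DOX_pos 5 lay above the DOX_neg range, DOX_pos 3 only just. The groups had 55 and 32 reads in all, a CPM ratio of 1.42 for DOX_pos over DOX_neg with an exact 95% counting interval of 0.904 to 2.27. Counting intervals leave out the spread between tumours. Hgfac and Mst1 had too few reads for the test over all genes. Without that filter Hgfac had a log2 fold change of 0.45 (SE 0.42, edgeR adjusted p = 0.604).

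Met (chromosome 6, 17463800 to 17573980) was by far the more abundant receptor and had the largest difference of the tested members relative to its error. It was at 42.8, 68.4, 59.3, 48.5 and 52.8 CPM in DOX_pos 1 to 5, against 52.4, 67.7, 92.2, 79.2 and 63.0 CPM in DOX_neg 1 to 5. DOX_pos 1 and DOX_pos 4 were below every DOX_neg tumour, while DOX_pos 2 was above DOX_neg 1, DOX_neg 2 and DOX_neg 5, so the groups overlapped. Means were 54.4 ± 9.90 CPM in DOX_pos tumours and 70.9 ± 15.3 CPM in DOX_neg tumours (SD, n = 5 each), or 0.767-fold. The log2 fold change was -0.38 (SE 0.16), with an unadjusted p of 0.0369 and an adjusted p of 0.287 in edgeR's test over all 16167 genes, with 2081 genes ranking at or before Met by p. The unadjusted p was above 0.05 without DOX_pos 1 (0.0868), DOX_pos 4 (0.0747), DOX_pos 5 (0.0634), DOX_neg 3 (0.0972) or DOX_neg 4 (0.0757), each left out alone. In the same edgeR test it was lower without DOX_neg 1 (0.0106) and without DOX_pos 2 (0.0116), with adjusted p of 0.313 and 0.145. In bulk tumours, fewer cells of a type and less RNA per cell cannot be told apart. Of 8 epithelial markers, 7 (among them Cdh1 and Epcam) had higher means in DOX_pos tumours, where Met was lower, and their summed level was 1420 to 2100 CPM in DOX_pos tumours and 1350 to 1900 CPM in DOX_neg tumours. Across the 10 tumours, on log2 scales, Met had Pearson r = -0.264 with their summed level (permutation p = 0.459, adjusted p = 0.788). Centred within groups, r was 0.0256 (permutation p = 0.944, adjusted p = 0.979). Their part in the difference of Met between groups was not tested.

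Mst1r (chromosome 9, 107906873 to 107920383), the RON receptor of epithelium and of some macrophages, was read far less. It had 0.918, 0.5002, 1.07, 0.215 and 0.725 CPM in DOX_pos 1 to 5, against 0.863, 0.739, 1.26, 0.348 and 0.845 CPM in DOX_neg 1 to 5. The lowest tumour of each group was number 4, with 3 reads in DOX_pos 4 and 6 reads in DOX_neg 4, and the ranges overlapped almost fully. The log2 fold change was -0.17 (SE 0.39, edgeR adjusted p = 0.849), and its sign turned without DOX_pos 4 (0.013), without DOX_neg 3 (0.026) and with voom (0.17).

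The adaptors and the phosphatase varied least. Gab1, the docking protein that MET phosphorylates, averaged 43.2 ± 3.58 CPM in DOX_pos tumours and 42.6 ± 3.85 CPM in DOX_neg tumours. Grb2, the adaptor that couples receptors to RAS, averaged 48.3 ± 3.02 CPM in DOX_pos tumours and 47.5 ± 3.25 CPM in DOX_neg tumours. Ptpn11, encoding the phosphatase SHP2 that GAB1 recruits, averaged 137 ± 5.44 CPM in DOX_pos tumours and 129 ± 12.2 CPM in DOX_neg tumours (SD, n = 5 each throughout). Over all 10 tumours the coefficients of variation of Gab1, Grb2 and Ptpn11 were 8.19%, 6.24% and 7.31%, against 23.9% for Met, 26% for Hgf and 42.9% for Mst1r. Their log2 fold changes were 0.02 (SE 0.08), 0.03 (SE 0.07) and 0.08 (SE 0.07), with edgeR adjusted p of 0.914, 0.866 and 0.575. The signs for Gab1 and Grb2 turned when single tumours were left out, and the value for Ptpn11 was 0.022 without DOX_neg 2, its lowest tumour (107.8 CPM). Of the 75-base stretches of Grb2 transcripts, 4.06% also occur in the pseudogene Gm12791.

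Cblb, a ubiquitin ligase of the Cbl family, whose member Cbl marks active MET for degradation, varied widely within both groups. It was at 64.4, 47.5, 59.4, 39.5 and 87.3 CPM in DOX_pos 1 to 5, against 60.9, 41.2, 83.0, 35.5 and 48.6 CPM in DOX_neg 1 to 5. DOX_pos 5 and DOX_neg 3 stood high and DOX_neg 4 and DOX_pos 4 low, so each group spanned more than the difference between them. The log2 fold change was 0.15 (SE 0.25, edgeR adjusted p = 0.791), and its sign turned without DOX_pos 5 (-0.027).

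**Figure D2:**
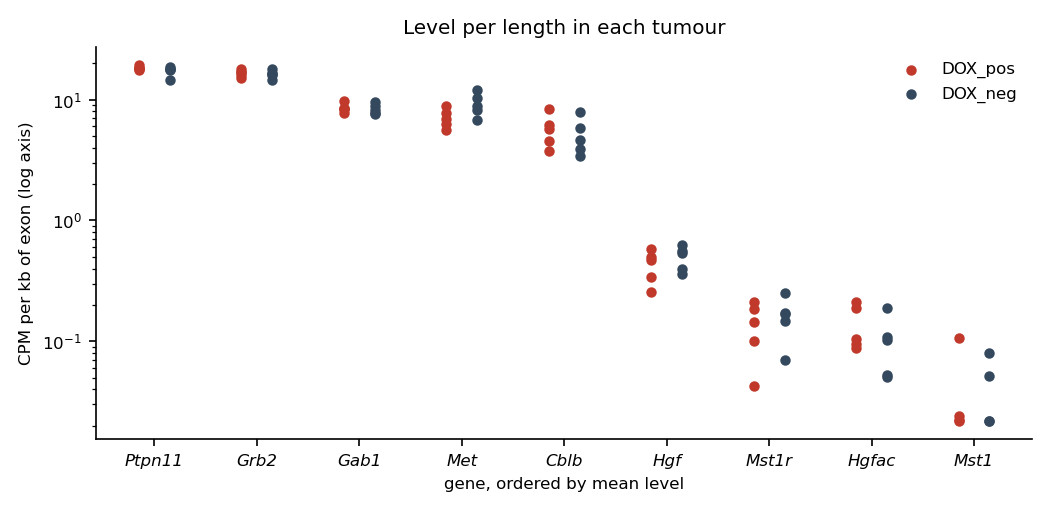
CPM per kb of exon (y axis, log scale) of the 9 genes in DOX_pos (red, left) and DOX_neg tumours (dark, right), ordered by the mean over all 10; a count of 0 (Mst1 in DOX_pos 4 and DOX_neg 1) is not drawn. Adaptors and Met lie above 3 CPM per kb and the ligands, the activator and Mst1r below 1.

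Levels of different genes were compared per kb of annotated exon. Ptpn11 was highest (18.2 ± 0.726 CPM per kb in DOX_pos tumours and 17.2 ± 1.62 in DOX_neg tumours), followed by Grb2 (16.6 ± 1.03 and 16.3 ± 1.12), and Ptpn11 exceeded Grb2 in 9 of 10 tumours. Gab1 (8.51 ± 0.704 in DOX_pos tumours and 8.38 ± 0.757 in DOX_neg tumours) and Met (7.08 ± 1.29 and 9.23 ± 1.99) could not be ordered, Gab1 being the higher in 5 of 10 tumours. Cblb came next (5.69 ± 1.75 and 5.14 ± 1.80) and was below Met in 8 of 10 tumours. A wide gap then separated Hgf (0.429 ± 0.130 in DOX_pos tumours and 0.496 ± 0.114 in DOX_neg tumours), which was above Mst1r in 10 of 10 tumours, from all of these. Mst1r (0.137 ± 0.0675 and 0.162 ± 0.0654) exceeded Hgfac (0.138 ± 0.0584 and 0.101 ± 0.0557) in 7 of 10 tumours, which does not settle their order, and Mst1 was lowest (0.0349 ± 0.0414 and 0.0350 ± 0.0310, SD, n = 5). Per kb, Met exceeded Mst1r by 30.4-fold to 147-fold in DOX_pos tumours and by 39.6-fold to 149-fold in DOX_neg tumours. Met exceeded Hgf by 11.9-fold to 34.6-fold in DOX_pos tumours (median 15.4) and by 15.4-fold to 30.5-fold in DOX_neg tumours (median 16.4).

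**Figure D3:**
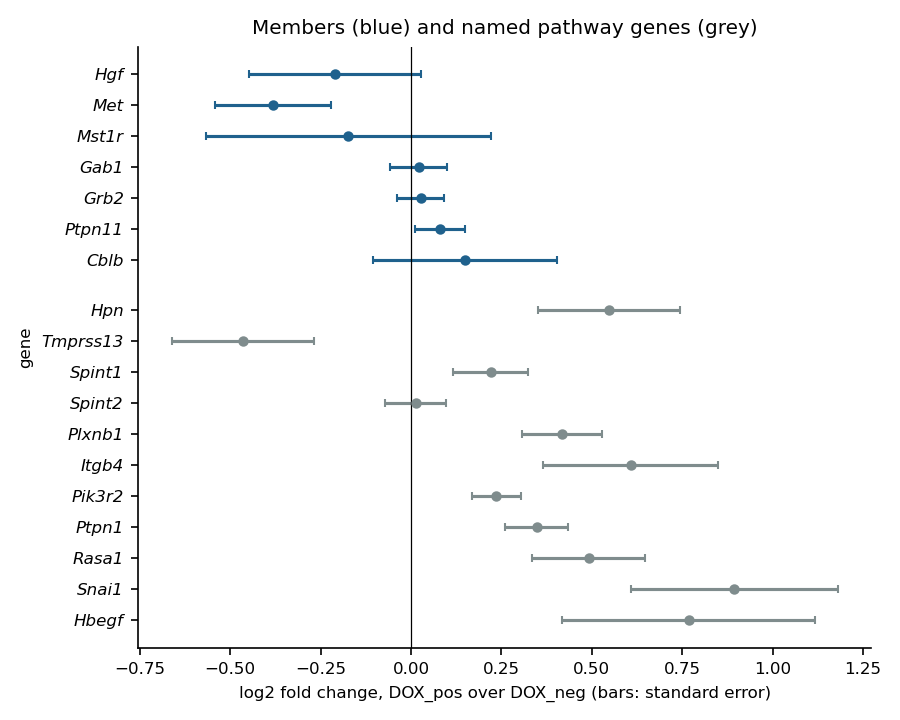
Log2 fold change of DOX_pos over DOX_neg tumours (x axis) with its standard error (bars) for the 7 members tested (blue) and for the named genes of the other pathway lists (grey), the 1 or 2 with the smallest p of each list. Met (-0.38) and Tmprss13 (-0.47) lie lowest and Snai1 (0.89) highest, and none of these genes passed edgeR's test over all genes.

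The rest of the pathway was described in 6 lists with 81 genes outside the 9, of which 76 were tested. None passed edgeR's adjusted test (0 of 76, smallest adjusted p 0.196). DESeq2 called 2 of the 76, beside 1.99% of all genes tested, and voom 5 of the 76, beside 4.79% of all genes tested. Means were higher in DOX_pos tumours for 63 and lower for 13, with a median log2 fold change of 0.16, against 50.5% of all genes tested higher. Scaling by library size only gave 68 higher and 8 lower, but it also moved all genes tested, to 9144 higher and 7023 lower. At an unadjusted p under 0.05 12 of the 76 were higher (15.8%, against 8.20% of all genes tested) and 2 lower (2.63%, against 7.83% of all genes tested), together 18.4% against 16.0% of all genes. The lists were chosen with earlier results of these data known, so these counts and shares are a description and not a test of the pathway.

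Of the proteases that can activate HGF or MSP, 4 of 5 tested had higher means, Hpn and Plau among them. Tmprss13, a membrane serine protease that also cuts HGF, was at 37.1 ± 10.3 CPM in DOX_pos tumours and 51.3 ± 10.7 CPM in DOX_neg tumours (SD, n = 5 each), with a log2 fold change of -0.47 (edgeR adjusted p = 0.288). St14, encoding matriptase, was far above Hpn in reads, at 173 ± 15.0 CPM in DOX_pos tumours and 171 ± 14.6 CPM in DOX_neg tumours. Neither gene tested of the membrane-bound inhibitors of these proteases was called. Spint1 was at 35.4 ± 3.66 CPM in DOX_pos tumours and 30.3 ± 3.98 CPM in DOX_neg tumours (log2 fold change 0.22). Spint2 was nearly level, at 182 ± 13.4 CPM in DOX_pos tumours and 181 ± 20.6 CPM in DOX_neg tumours (log2 fold change 0.01).

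Co-receptors had higher means in 5 of 6 genes. Scaled by library size only, 6 of 6 were higher, as were 9144 of all 16167 genes tested. Plxnb1, a semaphorin receptor that pairs with MET at the membrane, was at 186, 171, 176, 199.6 and 191 CPM in DOX_pos 1 to 5, against 134, 116, 170.1, 114 and 158 CPM in DOX_neg 1 to 5. Every DOX_pos tumour was above every DOX_neg tumour, by as little as 171 against 170.1 CPM, as in 1.82% of all genes tested in this direction. The log2 fold change was 0.42 (SE 0.11) with an edgeR adjusted p of 0.196, and DESeq2 (adjusted p = 0.0340) and voom (adjusted p = 0.0489) called it. Itgb4, an integrin chain of basal epithelium that MET can use as a signalling platform, averaged 194 ± 46.0 CPM in DOX_pos tumours and 127.5 ± 49.6 CPM in DOX_neg tumours (edgeR adjusted p = 0.270). Basal and myoepithelial markers had higher means in 7 of 7 genes, with summed levels of 98.7 to 555 CPM in DOX_pos tumours and 59.9 to 282 CPM in DOX_neg tumours. DOX_pos 5 was highest and DOX_neg 4 lowest for both Itgb4 and this sum. However, DOX_pos 2 had 184.8 CPM of Itgb4 beside a sum of 98.7 CPM, and DOX_neg 1 had 126.7 CPM beside 260 CPM. The part of these markers in the Itgb4 values was not tested.

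Signal transducers had higher means in 23 of 27 genes but by little (median log2 fold change 0.06). Scaled by library size only, 27 of 27 were higher, as were 9144 of all 16167 genes tested. Pik3r2, a regulatory subunit of phosphoinositide 3-kinase, averaged 64.3 ± 4.54 CPM in DOX_pos tumours and 54.6 ± 3.78 CPM in DOX_neg tumours (log2 fold change 0.24, edgeR adjusted p = 0.215). Its groups did not overlap, as in 1.82% of all genes tested in this direction.

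Negative regulators had higher means in 14 of 17 genes (median log2 fold change 0.18), and 5 were higher and 1 lower at an unadjusted p under 0.05, as were 8.20% (higher) and 7.83% (lower) of all genes tested. Ptpn1, encoding a phosphatase (PTP1B) that acts on MET, was at 72.4, 69.4, 70.6, 66.8 and 90.3 CPM in DOX_pos 1 to 5, against 61.0, 52.1, 63.3, 57.1 and 57.0 CPM in DOX_neg 1 to 5. All 5 DOX_pos values were above the highest DOX_neg value, as in 1.82% of all genes tested. The log2 fold change was 0.35 (SE 0.09) with an edgeR adjusted p of 0.196, and DESeq2 (adjusted p = 0.0281) and voom (adjusted p = 0.0405) called it. Rasa1, a GTPase-activating protein that turns RAS off, averaged 149 ± 28.2 CPM in DOX_pos tumours and 106 ± 19.9 CPM in DOX_neg tumours (edgeR adjusted p = 0.238), and voom called it (adjusted p = 0.0405). Lrig1, a membrane protein that lowers MET levels, averaged 58.6 ± 12.1 CPM in DOX_pos tumours and 36.6 ± 12.2 CPM in DOX_neg tumours, and Socs3, a feedback inhibitor of cytokine signalling, 35.4 ± 6.65 CPM in DOX_pos tumours and 21.6 ± 8.66 CPM in DOX_neg tumours. Both were called by voom (adjusted p of 0.0405 and 0.0449) and not by edgeR (adjusted p of 0.239 and 0.249) or DESeq2. The 1 lower gene was Ptprb, encoding a receptor phosphatase of endothelium, at 19.0 ± 2.25 CPM in DOX_pos tumours and 24.3 ± 3.66 CPM in DOX_neg tumours (log2 fold change -0.36, edgeR adjusted p = 0.241). Endothelial markers had lower means in 5 of 6 genes, with summed levels of 75.7 to 122 CPM in DOX_pos tumours and 89.5 to 118 CPM in DOX_neg tumours. The other marker, Vwf, was higher, at 11.8 ± 9.89 CPM in DOX_pos tumours and 3.95 ± 1.33 CPM in DOX_neg tumours. Its log2 fold change was 1.58 (edgeR adjusted p = 0.232, DESeq2 adjusted p = 0.0440). The part of endothelial cells in the Ptprb values was not tested. Lrig1, Socs3, Ptprb and Vwf were named after their values were seen.

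Genes that HGF is known to induce in cultured cells had higher means in 16 of 20, with a median log2 fold change of 0.23, where 50.5% of all genes tested were higher. The 4 lower were Ptgs2 (log2 fold change -0.74), Mmp13 (-0.43), Mmp9 (-0.42) and Ets2 (-0.14), and none of the 20 was called by edgeR. Plau is in this list and also among the activating proteases. Snai1, a repressor of E-cadherin, averaged 20.55 ± 5.30 CPM in DOX_pos tumours and 11.05 ± 4.36 CPM in DOX_neg tumours (log2 fold change 0.89, edgeR adjusted p = 0.238). The groups did not overlap for Snai1, as in 1.82% of all genes tested in this direction. Hbegf, an EGF-family ligand, averaged 26.8 ± 11 CPM in DOX_pos tumours and 15.7 ± 7.63 CPM in DOX_neg tumours (edgeR adjusted p = 0.312), with DOX_pos 4 at 44.6 CPM. Both genes are also induced by many other signals.

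**Figure D4:**
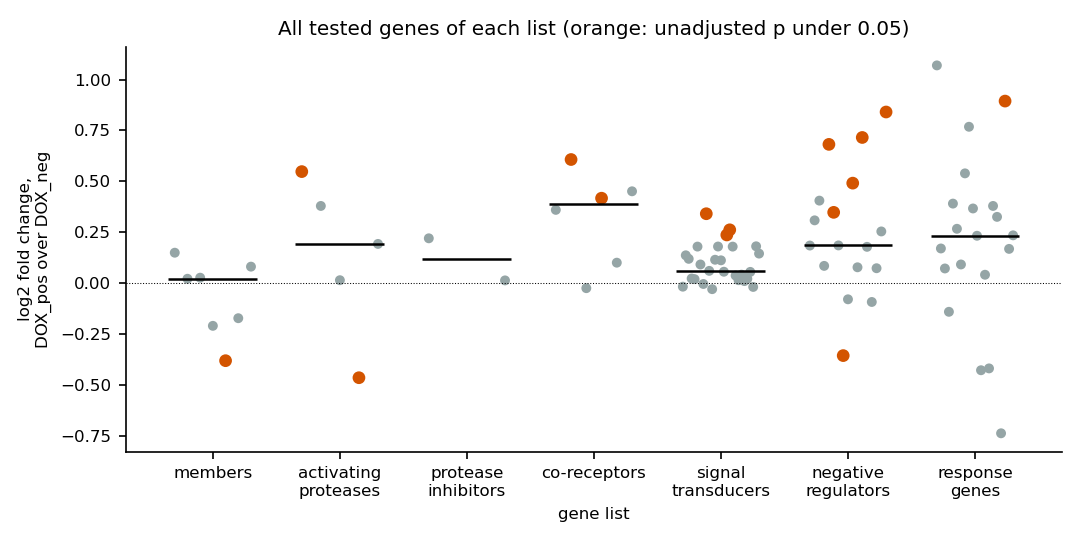
Log2 fold change of DOX_pos over DOX_neg tumours (y axis) for every tested gene of each list (x axis), with the list median as a bar and genes at an unadjusted p under 0.05 in orange. The medians run from 0.02 in the 9 members' list to 0.39 in the co-receptors.

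Across the 10 tumours, the members' levels were set beside the summed CPM of 8 marker lists, a family of 56 relations computed after their values had been seen, on log2 scales with two-sided permutation tests. Cblb followed the basal and myoepithelial markers (Krt5, Krt14, Krt17, Trp63, Acta2, Myh11 and Oxtr), with Pearson r = 0.923 (permutation p = 0.0001, adjusted p = 0.0056) and Spearman rho = 0.952 (permutation p = 0.00012, adjusted p = 0.00672). Their summed level was 315, 98.7, 232, 104 and 555 CPM in DOX_pos 1 to 5, against 260, 75.9, 282, 59.9 and 217 CPM in DOX_neg 1 to 5. The tumours highest for Cblb, DOX_pos 5 and DOX_neg 3, held the first and the third place for these markers, and DOX_neg 4 was lowest for both. Without DOX_neg 4 and DOX_neg 2, the tumours farthest from the median, r was 0.879. DOX_neg 4 and DOX_pos 5, lowest and highest for both, were also opposite ends of the first principal component, the main axis of variation between tumours (34.7% of variance). The share of all genes that follow these markers was not computed, so whether the relation is particular to Cblb is not known. The relation of Cblb with these markers was the 1 of 56 to pass the adjustment over all 10 tumours. With the values centred within each group and tumours permuted within groups, r was 0.922 (permutation p = 0.00038, adjusted p = 0.0106) and rho 0.959 (permutation p = 0.0006, adjusted p = 0.0168). Cblb also rose with the 8 epithelial markers, with r = 0.838 over all 10 tumours (permutation test, adjusted p = 0.0816). Within groups that relation passed by r (0.865, permutation test, adjusted p = 0.0452) and not by rho (0.835, permutation test, adjusted p = 0.136). Of the 56 relations, 3 passed within groups by r and 2 by rho.

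Hgf had a higher correlation with the macrophage markers than with the fibroblast markers. With the summed 10 macrophage markers, Hgf had r = 0.815 (permutation p = 0.00437, adjusted p = 0.0816) and rho = 0.842 (permutation p = 0.00356, adjusted p = 0.0997), neither passing the adjustment, and r was 0.868 without DOX_pos 5 and DOX_pos 3. Centred within groups, the relation did pass, with r = 0.929 and rho = 0.927 (permutation p = 0.00011 and adjusted p = 0.00616 for each). Summed macrophage markers were at 479, 469, 651, 576 and 675 CPM in DOX_pos 1 to 5, against 482, 543, 504, 640 and 532 CPM in DOX_neg 1 to 5. Lyz2 was the largest part of these sums, from 129 CPM in DOX_pos 1 to 280 CPM in DOX_pos 3. The 10 markers did not all follow Hgf, and Mrc1 was lowest (19.2 CPM) in DOX_neg 4, the tumour highest for Hgf (4.52 CPM). Lyz2 and Mrc1 were named after their values were seen. With 9 fibroblast markers, r was 0.416 (permutation p = 0.232, adjusted p = 0.685), rho was 0.406 (permutation p = 0.247, adjusted p = 0.603), and r was -0.11 without DOX_pos 2 and DOX_pos 4. The difference between these relations was not tested. Fibroblast markers had lower means in 8 of 9 genes (7 of 9 when scaled by library size only), with summed levels of 70.6 to 168 CPM in DOX_pos tumours and 103 to 172 CPM in DOX_neg tumours. Within groups, the relation of Hgf with the fibroblast markers had r = 0.319 (permutation p = 0.444, adjusted p = 0.802) and rho = 0.312 (permutation p = 0.416, adjusted p = 0.758).

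**Figure D5:**
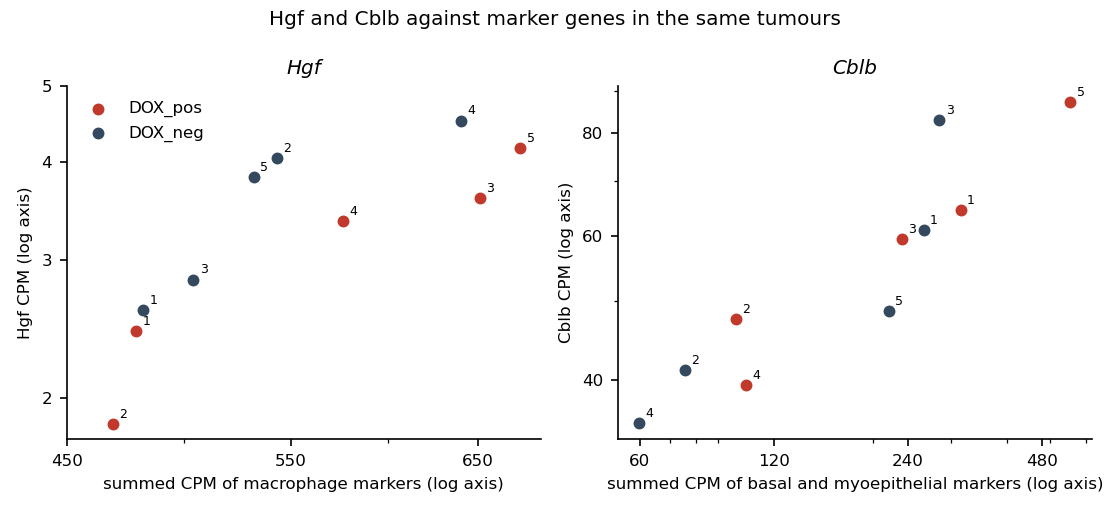
CPM of Hgf against the summed CPM of macrophage markers (left) and CPM of Cblb against the summed CPM of basal and myoepithelial markers (right), all axes log, for DOX_pos (red) and DOX_neg (dark) tumours numbered by tumour. Both groups run along each trend, with DOX_pos 2 (1.85 CPM of Hgf) and DOX_neg 4 (35.5 CPM of Cblb) at the low ends.

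The genes whose tumour-to-tumour pattern lay closest to each member were ranked by the root mean square difference of centred log2(CPM + 1) over the 10 tumours. For Hgf (SD 0.31) these were Tyrobp (0.14) and C3ar1 (0.14), an adaptor and a complement receptor of myeloid cells, and Mllt3 (0.16), from 5729 candidates. For Met (SD 0.33) they were Snx30, Trmt9b and Atxn7l1, each at 0.16, from 5105 candidates. For Mst1r (SD 0.28) they were Pgm1 (0.13), Asap1 (0.14) and Lrrk2 (0.15), from 6450 candidates.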

How the data were processed

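The authors deposited raw read counts, 1 whole number for each Ensembl gene and tumour, from directional, ribosome-depleted libraries, read single-end to 75 bp, per the labels' protocols. STAR 2.6.0c, featureCounts and the build GRCm38 are named in the submitters' processing notes, while the annotation release and strand setting used are not stated. Of 55335 identifiers, 55154 matched a symbol, and coordinates, exon lengths and sequences came from GENCODE M21 (GRCm38). Counts were tested with edgeR 4.0.16 in R 4.3.3 (TMM scaling, filterByExpr with a minimum count of 10 and total of 15, quasi-likelihood test, Benjamini-Hochberg adjustment over all 16167 genes tested, threshold 0.05). CPM used TMM-scaled library sizes, and permutation tests of Hpn used log2(CPM + 1). The 20 within-group pairs of libraries differed by 6.76 to 41.9 in chi-square per degree of freedom, so each counted once. Relations used 100000 resamples, over all tumours and, in an analysis added after the data were seen, within groups on group-centred values.

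Members and gene lists were chosen with earlier results of these data known. Named genes were all members, the 2 with the smallest p of each pathway list, and for Hgf, Met and Mst1r the 3 genes with the closest pattern among tested genes with a mean of at least 5 CPM and an SD of at least 0.5 times the member's; 1 gene that this rule selects is not reported here, and others are said to be named after their values were seen, or illustrate a list's count. Alternatives were DESeq2 1.42.0, limma 3.58.1 voom with sample weights, other scalings, filters and thresholds, a robust fit, the replicate number as a block and each tumour left out. On simulated counts for 16167 genes of the DOX_pos against DOX_neg comparison, edgeR recovered 27% of 200 genes changed 1.5-fold, 68% of those changed 2-fold and 90% of those changed 4-fold, and made 0 calls when none changed. It made 4, 8 and 5 false calls in the 1.5-fold, 2-fold and 4-fold runs. Each gene was simulated independently of the others, so these rates leave out variation that genes share between tumours.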

Additional observations from a re-analysis of the deposited data

Results flagged for a closer look

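Ptpn11 in DOX_neg 2 stood apart from the other 4 DOX_neg tumours, at 107.8 CPM against 133 CPM in the nearest (gap over range 0.811). Mst1 in DOX_pos 5 stood apart from the other 4 DOX_pos tumours, at 0.242 CPM against 0.054 CPM in the nearest (gap over range 0.776), a value of 4 reads. These were 2 of 20 groups of 5 examined, and chance gives about 1 in 20.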

How the results depend on the processing

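No member was called by edgeR under any alternative that was run, nor by DESeq2 or voom. Hgfac and Mst1 were tested only in the edgeR fit without a filter on low counts. Of 132 alternative values of the 7 tested members, 121 kept their direction and stayed uncalled and 11 turned sign. Met stayed lower throughout (-0.48 to -0.23), with adjusted p between 0.145 and 0.637. Its unadjusted p was above 0.05 without DOX_pos 1, 4 or 5, without DOX_neg 3 or 4, without both DOX_neg 4 and DOX_pos 5, and with voom. The lowest unadjusted p values, all from edgeR, were 0.0106 without DOX_neg 1, 0.0113 with the replicate number as a block and 0.0116 without DOX_pos 2. With single tumours left out, log2 fold changes ran from -0.43 to 0.026 for Mst1r, -0.029 to 0.063 for Gab1, -0.016 to 0.055 for Grb2, -0.027 to 0.35 for Cblb, -0.34 to -0.078 for Hgf and 0.022 to 0.11 for Ptpn11, and the count of all genes called from 0 to 37 (37 without DOX_neg 3, 2 without DOX_pos 2). Voom turned Mst1r to 0.17. Leaving out both DOX_neg 4 and DOX_pos 5, an alternative chosen after seeing the data, turned Gab1 to -0.040 and Cblb to -0.15. DESeq2 called 322 of all 16167 genes tested (1.99%) and 2 of the 76 pathway genes. Voom called 775 of all genes tested (4.79%) and 5 of the 76 pathway genes, giving DOX_pos 3 a weight of 4.65 against at most 1.89 for the others. The causes of these differences were not tested. With the replicate number as a block edgeR called 7 of all genes and none of the members. Same-numbered tumours had correlated deviations of 0.0568 to 0.320, under 0.1 in 1 of 5 pairs, and 1 of 5 DOX_pos tumours correlated best with its own number, so the numbers were not taken as pairs. The difference of Hpn stayed between 0.38 and 0.60 with single tumours left out. Depth limits Mst1, Hgfac and Mst1r most, at 0 to 43 reads per tumour.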
